A study of Rattus norvegicus with 6 samples.

Results

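The genes described here are the rat MHC genes, whose symbols begin with RT1-, together with 10 named genes of the antigen-processing route (B2m, Tap1, Tap2, Tapbp, Psmb8, Psmb9, Psmb10, Erap1, Nlrc5 and Cd74). The rule reads gene names and no measured value, though it was written with earlier results of these data known. It found 57 genes, 47 of them RT1 genes, among 40456 in the deposited count table, and 26 had at least 10 counts in 3 libraries. Those 26 are reported with values, and each of them also entered the test across all genes.

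MHC class I molecules show short peptides from inside a cell at its surface, where T cells and natural killer cells read them. Peptides are cut by the proteasome, whose inducible subunits Psmb8, Psmb9 and Psmb10 replace standard subunits in the immunoproteasome. The transporter formed by Tap1 and Tap2 carries the peptides into the endoplasmic reticulum, Erap1 trims them, and tapasin, the product of Tapbp, helps to load them onto a heavy chain paired with the light chain B2m. Interferons raise most of these genes, through IRF factors and through the coactivator Nlrc5. Muscle cells are known for low class I levels at rest. Class II molecules show peptides from outside the cell, mostly in professional immune cells, and use Cd74 as their invariant chain.

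RNA was sequenced from H9c2, a myoblast line derived from embryonic rat heart, labelled as cardiomyocyte and as wild type. All cells had been differentiated for 5 days in 1% serum with 1 µM retinoic acid, and then received a locked nucleic acid (LNA) gapmer at 25 nM for 24 h. A gapmer is a short antisense strand that recruits RNase H, which degrades the matching transcript. The 3 control libraries carry a negative control gapmer, and in the 3 knockdown libraries the gapmer is directed at Tug1, a long RNA that codes for no protein. Each group rests on 1 gapmer sequence. Since nothing in the labels says that the libraries came from separate cultures, p-values measure the spread between these libraries, which may be technical.

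Libraries held 12978548 to 13544337 counts. Tug1 had 672 to 718 counts in controls and 152 to 165 after knockdown, which matches the labels. Of 14 muscle and heart markers, 10 were tested, 6 called higher and 2 lower, beside 30.8% higher and 30.9% lower over all tested genes. Those higher were Myog at 177% of control, Myh3 at 156%, Ckm at 152%, Acta1 at 125%, Tnnt2 at 118% and Des at 117%. Those lower were Vim at 58.7% and the myogenic factor Myod1 at 80.0%, while Gata4 and Actn2 did not pass. The heart genes Myh6, Myh7, Tnni3 and Nkx2-5 had between 0 and 4 counts in each library. Of 12 leukocyte markers, Ptprc, Ms4a1 and Nkg7 had no count in any library. Cd14, Csf1r, Cd68 and Itgax were tested: Cd14 was lower (49.1% of control), Cd68 higher (213%), and Csf1r (115%) and Itgax (99.4%) did not pass. The summed level of the list was 310.8 to 315 CPM (counts per 1000000) in controls and 266 to 291 CPM after knockdown. Of 5 endothelial markers 1 was tested and not called. Of 5 fibroblast markers 4 were tested, Dcn (148%) and Col3a1 (139%) higher and Thy1 (75.8%) and Col1a1 (85.5%) lower. The part of these cell types in the results was not tested, and in bulk RNA fewer cells of a type and less RNA per cell cannot be told apart.

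Most of the non-RT1 genes of the route were lower after Tug1 knockdown, while 11 of the 16 reported class I heavy chain genes did not pass the test. Psmb8, Tap1, Tapbp and the class II gene RT1-DMa were at 38.7% to 53.3% of their control level. B2m, Psmb9, Psmb10 and Erap1 fell by less, to 76.9% to 83.3%. Tap2 and Nlrc5 did not pass the test, and the class I gene RT1-M6-2 rose to 218% of control.

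Of the 26 reported genes, 12 (46.2%) were called lower and 1 (3.85%) higher at an adjusted p under 0.05 in edgeR's quasi-likelihood test, with adjustment over 14216 genes. Across all tested genes 61.7% were called, 30.9% lower and 30.8% higher, so that a call on its own sets a gene little apart in these data. The share called lower was 77.8% among the 9 genes outside RT1 and 29.4% among the 17 RT1 genes, the latter near the background. The median log2 fold change (Tug1 gapmer over control gapmer) was -0.34 over the reported genes and 0.00 over all tested genes. It was -0.36 over the 9 genes outside RT1 and -0.32 over the 17 RT1 genes. These medians lay close together although the shares called lower did not. The part of count levels in the difference between the shares was not tested. Knockdown values lay wholly below control values for 11 reported genes and wholly above them for 2, against 32.6% and 33.0% of all tested genes.

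**Figure D1:**
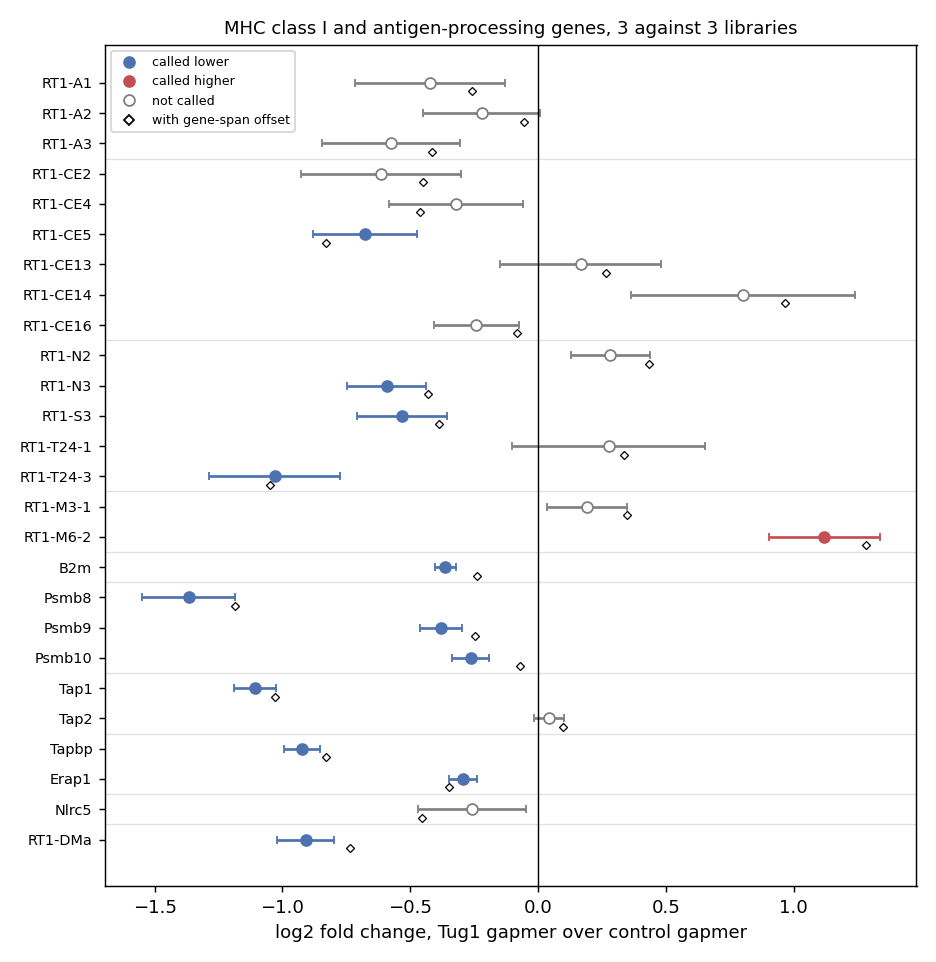
Log2 fold change with its SE for the 26 reported genes, ordered by role from classical heavy chains at the top to the class II gene RT1-DMa at the bottom. Filled circles passed an adjusted p of 0.05, open circles did not, and diamonds give the value after an offset for gene span; Psmb8 lies lowest at -1.37 and RT1-M6-2 highest at 1.12.

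The genes of the peptide transporter showed a split between partners at the RNA level. Counts of Tap1 were 3118, 3283 and 2807 in the control libraries, always listed here by replicate number, and 1235, 1742 and 1469 in the knockdown libraries. All knockdown libraries lay below all controls, the first the lowest. Its level was 237 ± 18.9 CPM in controls and 109.8 ± 19.7 CPM after knockdown (mean ± SD, n = 3, CPM scaled by TMM), a log2 fold change of -1.11 ± 0.0828 (SE, adjusted p 8.35e-11 in edgeR). Tap2 had 976, 908 and 973 counts in controls and 990, 1088 and 985 after knockdown, so its groups overlapped once scaled. Its log2 fold change was 0.04 ± 0.0585 (SE, adjusted p 0.558 in edgeR). The ratio of Tap1 to Tap2 counts within a library was 3.20, 3.62 and 2.88 in controls and 1.25, 1.60 and 1.49 after knockdown. This ratio was set up after the values had been seen and is given without a test.

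The RNA for tapasin, the bridge between the transporter and the heavy chain, fell as well. Tapbp had 3117, 3193 and 2942 counts in controls and 1495, 1957 and 1631 after knockdown. The groups lay far apart, and knockdown replicate 1 was again lowest. Its log2 fold change was -0.92 ± 0.0695 (SE, adjusted p 9.54e-11 in edgeR), and 52.8% of the control level remained. Erap1, the reticulum aminopeptidase, had 1614, 1537 and 1643 counts in controls and 1303, 1385 and 1388 after knockdown. That drop was smaller and also without overlap, with a log2 fold change of -0.29 ± 0.0541 (SE, adjusted p 6.27e-05 in edgeR).

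B2m, the light chain shared by all class I molecules, had 26464, 25918 and 25751 counts in controls and 21448, 22085 and 19798 after knockdown. Controls differed little from one another, at 2007 ± 21.9 CPM (n = 3, SD), and every knockdown library lay below them, at 1561 ± 69.5 CPM. The log2 fold change was -0.36 ± 0.0417 (SE, adjusted p 9.01e-08 in edgeR).

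**Figure D2:**
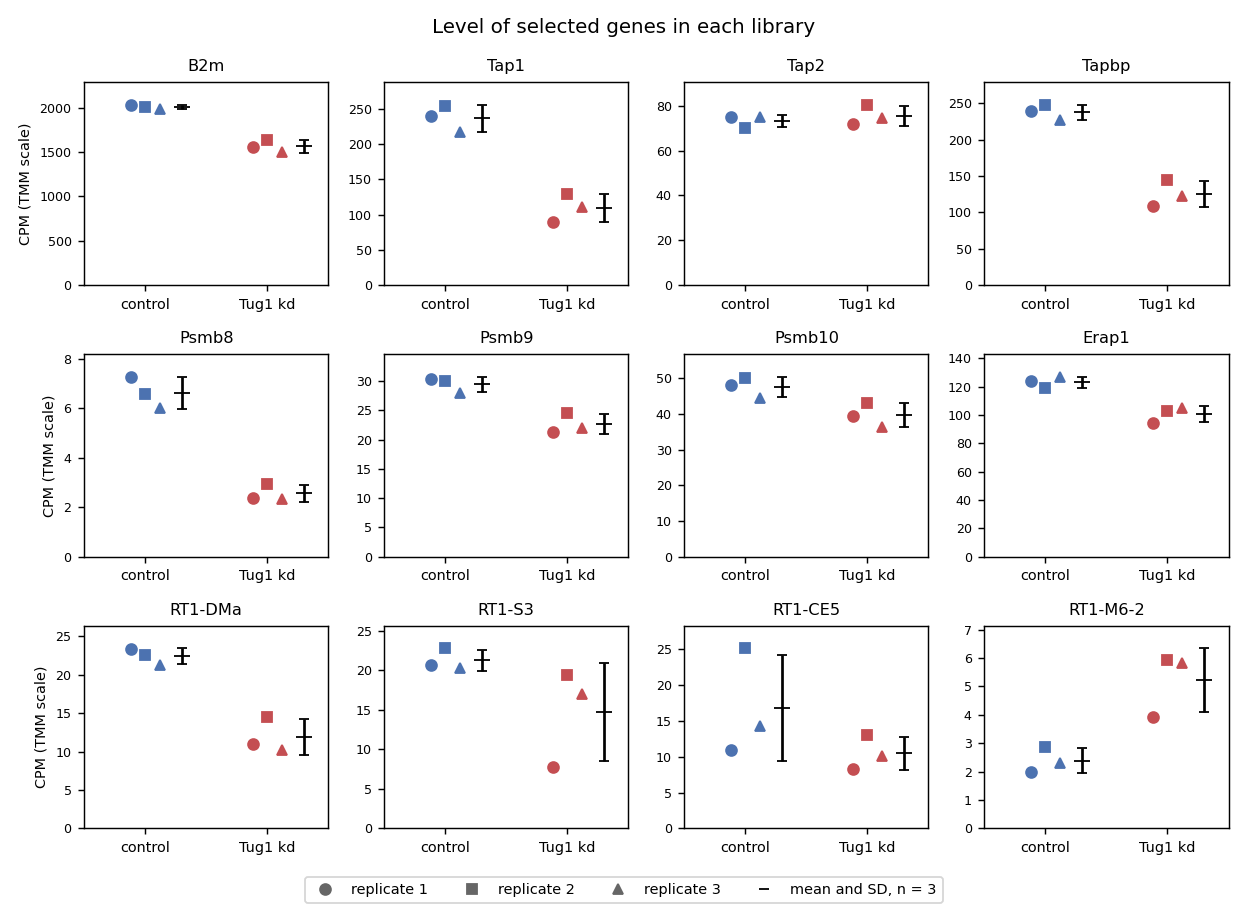
CPM on the TMM scale for 12 genes in each library (y axes start at 0), with marker shapes for replicate numbers and a bar for the mean and SD of each group. Tap1, Tapbp, Psmb8 and RT1-DMa separate widely, Tap2 overlaps, RT1-S3 is low in knockdown replicate 1 and RT1-CE5 is high in control replicate 2.

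The genes of the inducible proteasome subunits fell unevenly. Psmb8, the chymotrypsin-like subunit, had 95, 85 and 78 counts in controls and 33, 40 and 31 after knockdown. At 6.63 ± 0.637 against 2.56 ± 0.343 CPM (n = 3, SD) it fell furthest of all reported genes, with a log2 fold change of -1.37 ± 0.183 (SE, adjusted p 8.87e-07 in edgeR). Psmb9 had 396, 388 and 362 counts in controls and 295, 333 and 290 after knockdown, again without overlap. Its log2 fold change was -0.38 ± 0.0814 (SE, adjusted p 0.000328 in edgeR). Psmb10 had 628, 649 and 577 counts in controls and 544, 584 and 482 after knockdown, a log2 fold change of -0.26 ± 0.0722 (SE, adjusted p 0.00308 in edgeR). The span of Psmb10, its length on the genome, is short, at percentile 4.74 of the tested genes. A further fit used an offset meant to take out a trend of levels with span. In that fit the log2 fold change of Psmb10 was -0.07 and no longer passed (edgeR adjusted p 0.383).

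Each inducible subunit takes the place of a standard one, so the counts of each pair were compared within libraries. Psmb8 counts per Psmb5 count were 0.0497 ± 0.00202 in controls and 0.0231 ± 0.00186 after knockdown (n = 3, SD), a difference of -1.11 on the log2 scale. Psmb9 per Psmb6 went from 0.370 ± 0.0163 to 0.316 ± 0.0246 (n = 3, SD), a difference of -0.23. Both ratios were lower in every knockdown library than in any control, and their exact permutation p was 0.1 (two-sided), the smallest that 3 libraries against 3 allow, or 0.15 adjusted over 3 ratios. Psmb10 per Psmb7 was 0.325 ± 0.0309 against 0.275 ± 0.0308 (n = 3, SD), with overlapping groups and an exact permutation p of 0.2. Psmb5 itself was called lower (log2 fold change -0.27), though not with the span offset (-0.12), so that Psmb8 lost more than its counterpart.

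**Figure D3:**
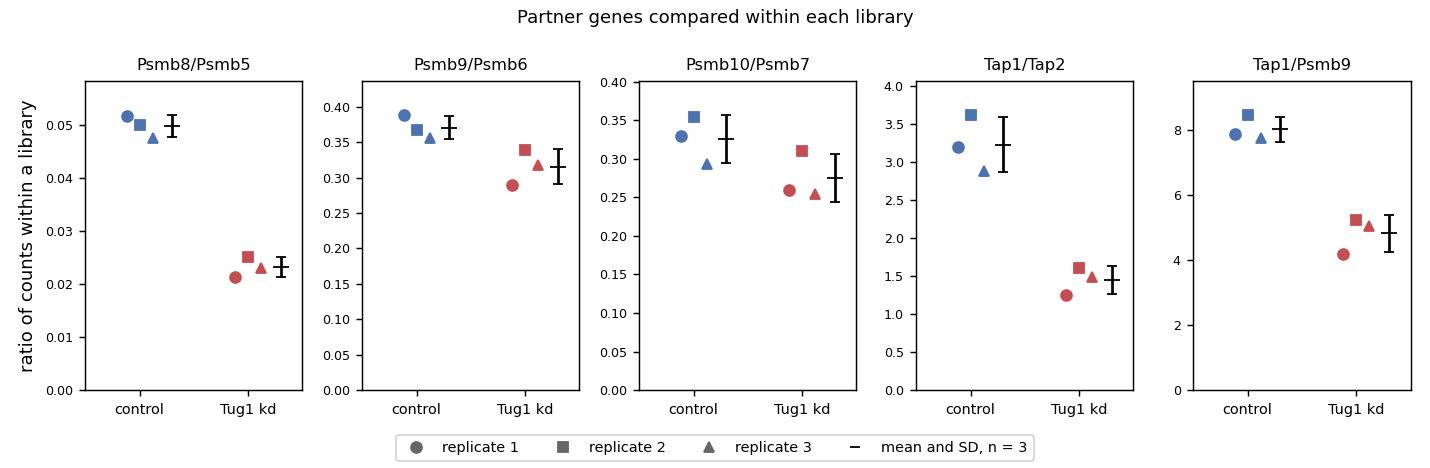
Ratios of counts between partner genes within each library (y axes start at 0), with the mean and SD of 3 libraries. Psmb8/Psmb5, Tap1/Tap2 and Tap1/Psmb9 separate widely between groups, Psmb9/Psmb6 narrowly, and Psmb10/Psmb7 overlaps.

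Tap2, Psmb8, Tap1 and Psmb9 follow one another in that order within the MHC on chromosome 20 of the RefSeq assembly GRCr8, and Tap1 and Psmb9 point away from each other. Although these neighbours share the space between them, their changes differed: Tap1 counts per Psmb9 count were 7.87, 8.46 and 7.75 in controls and 4.19, 5.23 and 5.07 after knockdown. As with the other transporter ratio, this one was set up after its values were seen. The start regions of these genes are shown because they move together only in part. Each runs 5′ to 3′ on the gene's own strand, from 250 bases before the RefSeq start to 10 after it, and the Tap1 and Psmb9 windows overlap by 44 bases. Capitals mark letters of an interferon-stimulated response element core (GAAANNGAA), a gamma-activated site (TTCNNNGAA) or a kappa B site (GGGACTTTC or GGGGATTCC), each sought on both strands. Psmb8 is at chr20:4657022-4657281, minus strand. Tap1 is at chr20:4668534-4668793, minus strand, Psmb9 at chr20:4668750-4669009, plus strand and Tap2 at chr20:4652287-4652546, minus strand.
Psmb8: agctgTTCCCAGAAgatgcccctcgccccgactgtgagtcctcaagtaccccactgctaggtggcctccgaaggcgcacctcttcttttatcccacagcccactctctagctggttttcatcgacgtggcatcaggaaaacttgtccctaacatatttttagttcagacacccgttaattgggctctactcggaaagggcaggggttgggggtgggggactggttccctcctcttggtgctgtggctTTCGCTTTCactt
Tap1: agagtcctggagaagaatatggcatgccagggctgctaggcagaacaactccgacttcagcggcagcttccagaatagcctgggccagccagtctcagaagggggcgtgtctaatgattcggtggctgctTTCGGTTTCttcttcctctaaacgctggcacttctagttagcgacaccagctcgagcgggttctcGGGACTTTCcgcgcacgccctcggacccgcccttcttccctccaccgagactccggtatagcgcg
Psmb9: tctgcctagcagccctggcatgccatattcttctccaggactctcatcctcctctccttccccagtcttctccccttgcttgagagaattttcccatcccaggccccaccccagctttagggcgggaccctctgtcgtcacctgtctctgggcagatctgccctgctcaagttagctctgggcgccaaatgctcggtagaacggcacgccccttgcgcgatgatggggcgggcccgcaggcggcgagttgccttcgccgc
Tap2: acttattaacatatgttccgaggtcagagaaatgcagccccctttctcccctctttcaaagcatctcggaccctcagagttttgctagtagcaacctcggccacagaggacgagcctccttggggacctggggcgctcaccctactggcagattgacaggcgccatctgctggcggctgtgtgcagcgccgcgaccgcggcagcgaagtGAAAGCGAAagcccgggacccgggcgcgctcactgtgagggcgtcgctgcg

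Tapbp (chr20:4967868-4968127, minus strand) lies further along the same chromosome and B2m (chr3:129549080-129549339, plus strand) on another. They are shown as the loading and light chain genes that fell, and RT1-A2 (chr20:4872621-4872880, plus strand) as a classical heavy chain that did not pass the test.
Tapbp: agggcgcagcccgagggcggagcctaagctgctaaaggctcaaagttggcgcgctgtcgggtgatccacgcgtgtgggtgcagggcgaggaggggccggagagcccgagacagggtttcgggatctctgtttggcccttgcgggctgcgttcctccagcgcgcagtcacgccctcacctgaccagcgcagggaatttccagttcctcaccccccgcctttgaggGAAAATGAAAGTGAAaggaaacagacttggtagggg
B2m: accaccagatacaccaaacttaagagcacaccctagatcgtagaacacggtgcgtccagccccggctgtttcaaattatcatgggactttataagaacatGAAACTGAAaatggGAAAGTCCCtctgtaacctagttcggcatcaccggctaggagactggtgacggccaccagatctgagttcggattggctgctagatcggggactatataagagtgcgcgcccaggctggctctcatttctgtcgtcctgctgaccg
RT1-A2: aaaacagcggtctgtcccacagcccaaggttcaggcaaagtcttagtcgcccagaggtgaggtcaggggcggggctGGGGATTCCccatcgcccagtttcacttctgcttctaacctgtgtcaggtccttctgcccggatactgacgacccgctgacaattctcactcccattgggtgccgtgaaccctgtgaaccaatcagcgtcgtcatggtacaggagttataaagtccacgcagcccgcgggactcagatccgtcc

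The response element core was found in Psmb8 from 3 bases before the start, in Tap1 from 120, in Tap2 from 41 and in B2m from 150. Tapbp held 2 matches, from 26 and from 20 bases before the start, which share letters. In the full 300-base windows, which reach 50 bases past the start, 9.71% of 33469 rat promoters held this core, against 8 of the 23 reported genes with a window (B2m, Psmb8, Psmb10, Tap1, Tap2, Tapbp, RT1-N3 and RT1-S3). Of those 8 genes, 7 were called lower, beside 46.2% of all reported genes, these 8 among them, and 30.9% of all tested genes. Psmb10 and RT1-S3 among the 8 were not called with the span offset. The part of count levels in this share was not tested. Psmb9 had no core in its window, but the Tap1 core lies between the starts of Tap1 and Psmb9. Only this exact spelling of the core was sought. A gene without a match, such as RT1-A2, may therefore hold a response element that is spelled otherwise. No test links the letters to the change. The gamma-activated site was in 8.87% of all windows and in 2 of the 23, Psmb8 and RT1-M3-1. The kappa B form GGGACTTTC was in 0.326% of all windows and in B2m and Tap1. The form GGGGATTCC was in 0.281% and in 6 heavy chain genes (RT1-A1, RT1-A2, RT1-A3, RT1-CE4, RT1-CE13 and RT1-CE16). None of these 6 was called, beside 61.7% of all tested genes. Their log2 fold changes ran from -0.58 to -0.22, except for RT1-CE13 at 0.17. They had 13 to 80 counts per library, and the part of low counts in this was not tested. The cyclic AMP element TGACGTCA was in 1.83% of all windows and in 0 of the 23, and CCAAT in 37.5% and in 17. These matches describe the letters of the reference only, and heavy chain genes are copies of each other, so their matches are not independent.

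The classical class I heavy chains RT1-A1, RT1-A2 and RT1-A3, which present peptides to cytotoxic T cells, had 15 to 80 counts per library. RT1-A2 had 80, 63 and 45 counts in controls and 42, 78 and 48 after knockdown, and its groups overlapped. RT1-A1 ran from 18 to 28 counts in controls and from 15 to 20 after knockdown. RT1-A3 had 27, 25 and 24 counts in controls and 17, 18 and 18 after knockdown. Although its groups did not overlap, it did not pass (log2 fold change -0.58, SE 0.271, edgeR adjusted p 0.0697). The other log2 fold changes were -0.42 (SE 0.292) for RT1-A1 and -0.22 (SE 0.228) for RT1-A2. Neither RT1-A1 nor RT1-A2 passed, and the part of low counts in this was not tested.

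The heavy chain genes of the C/E region were mixed. Of 14, 6 were reported and only RT1-CE5 was called, lower. RT1-CE5 had 142, 324 and 185 counts in controls and 115, 175 and 134 after knockdown, a log2 fold change of -0.68 ± 0.204 (SE, adjusted p 0.00618 in edgeR). Its groups overlapped, and control replicate 2 stood well above all other libraries. Without that library its log2 fold change was -0.27 and it did not pass (edgeR adjusted p 0.174), nor did it with DESeq2's Wald test (0.148). RT1-CE16 had 60 to 78 counts in controls and 58 to 65 after knockdown, RT1-CE4 24 to 31 and 20 to 28, and RT1-CE2 23 to 32 and 12 to 29. RT1-CE13 had 13 to 14 counts in controls and 15 to 17 after knockdown, and did not pass although its values did not overlap. RT1-CE14 sits just inside the count minimum, with 4, 10 and 4 counts in controls and 11, 10 and 12 after knockdown, and RT1-CE11 just outside it, with 11, 12 and 9 against 4, 6 and 7. RT1-CE14 passed the test when control replicate 2 was left out (log2 fold change 1.37) and RT1-CE2 when knockdown replicate 2 was left out (-1.10), but neither did with all libraries.

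Among the non-classical genes of the N, S, T and O groups, 3 of 5 reported genes were called lower. Of these, RT1-T24-3, whose span overlaps RT1-T24-2 and RT1-T24-4 in RefSeq, had 45, 42 and 35 counts in controls and 16, 20 and 26 after knockdown, without overlap, a log2 fold change of -1.03 ± 0.256 (SE, adjusted p 0.00134 in edgeR). RT1-N3 had 199, 185 and 145 counts in controls and 90, 126 and 149 after knockdown. Its knockdown replicate 3 lay within the control range, and the log2 fold change was -0.59 ± 0.153 (SE, adjusted p 0.00189 in edgeR). RT1-S3 had 269, 294 and 263 counts in controls but 107, 262 and 225 after knockdown. The first knockdown library carried most of that difference. With all libraries the log2 fold change was -0.53 ± 0.176 (SE, adjusted p 0.0118 in edgeR), and without knockdown replicate 1 it was -0.22 (0.0710), which did not pass. DESeq2's Wald test (adjusted p 0.240), the span offset (edgeR adjusted p 0.0644) and the fit without control replicate 2 (0.0615) also left RT1-S3 short of the threshold. RT1-N2, with 65 to 88 counts in controls and 86 to 105 after knockdown, went the other way without passing (log2 fold change 0.28, SE 0.154), but passed with the span offset (0.44, edgeR adjusted p 0.0161) and without control replicate 1 (0.41). RT1-T24-1 had 11 to 14 counts in controls and 7 to 22 after knockdown, both the lowest and the highest values in the knockdown group.

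In the M group the direction differed. RT1-M6-2 had 26, 37 and 30 counts in controls and 54, 80 and 77 after knockdown, and all knockdown libraries exceeded all controls. Its level rose from 2.39 ± 0.440 to 5.22 ± 1.13 CPM (n = 3, SD), a log2 fold change of 1.12 ± 0.216 (SE, adjusted p 9.94e-05 in edgeR). RT1-M3-1, the rat form of the molecule known for presenting N-formylated peptides, had 92, 69 and 71 counts in controls and 88, 87 and 101 after knockdown, with a log2 fold change of 0.19 (SE 0.155) that did not pass.

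Because the heavy chain genes are near-identical in places, and how reads matching several genes were counted is not given in the sources used here, each single RT1 value is uncertain and their sum was taken as well. H9c2 cells come from the BDIX strain and the RefSeq assembly is of the BN strain, whose MHC alleles differ, and the alignment reference is not given either. In RefSeq the spans of the called genes RT1-CE5 (10 other genes), RT1-T24-3 (5), RT1-N3 (1) and RT1-S3 (1) overlap those of others, whose reads cannot be told apart from theirs without a stated use of strand, while RT1-M6-2 and RT1-DMa overlap none. The 47 RT1 genes together had 1493, 1640 and 1360 counts in controls and 967, 1401 and 1217 after knockdown. On the TMM scale this was 115.5 ± 11.1 CPM against 88.5 ± 17.0 CPM (n = 3, SD), or 76.7% of control and a log2 ratio of -0.38. The groups did not overlap, though knockdown replicate 2 (103.6 CPM) came close to control replicate 3 (104.9 CPM). A sum over chosen genes is given without a test. It depends less on how shared reads were divided, but does not recover reads that were discarded or did not align.

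Part of this difference came from class II. The 37 class I genes alone summed to 92.8 ± 10.7 CPM in controls and 76.3 ± 15.5 CPM after knockdown (n = 3, SD), a log2 ratio of -0.28, and the groups overlapped, with knockdown replicate 2 (88.9 CPM) above control replicate 3 (83.1 CPM). The M genes summed to more after knockdown (8.61 against 12.8 CPM), and the other class I groups to less, with overlap in each: RT1-A at 8.50 against 6.73 CPM, RT1-CE at 29.8 against 21.7 CPM, and the N, S, T and O genes at 45.9 against 35.0 CPM. Leaving out knockdown replicate 1 brought the log2 ratio of all RT1 genes to -0.24, and leaving out knockdown replicate 2 to -0.51.

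**Figure D4:**
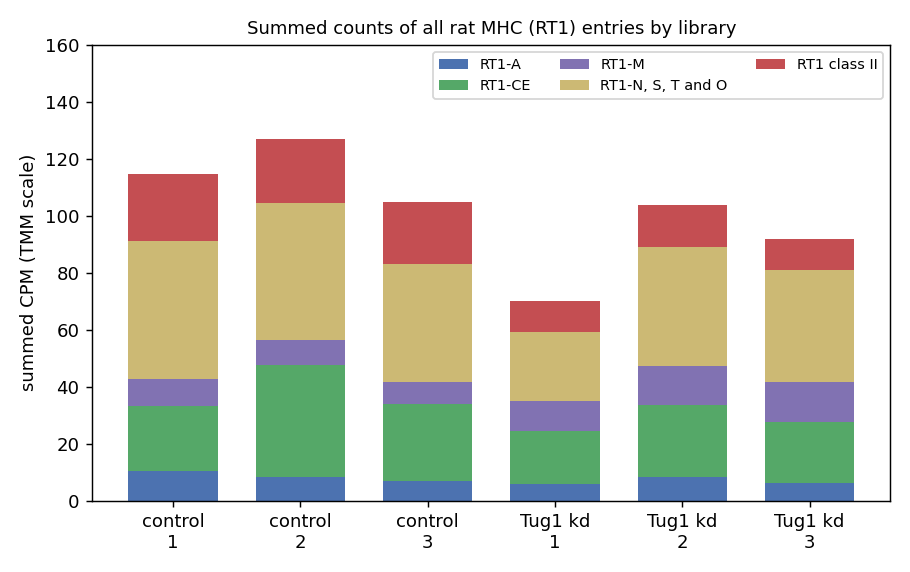
Summed CPM (TMM scale, axis from 0) of all 47 RT1 genes in each library, stacked by group of genes. Totals run from 104.9 to 127.0 CPM in controls and from 70.1 to 103.6 CPM after knockdown, with the lowest total in knockdown replicate 1.

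RT1-DMa, the alpha chain of the class II peptide exchange factor DM, was the only class II gene above the count minimum. It had 305, 291 and 276 counts in controls and 152, 197 and 135 after knockdown, and the groups were clearly apart. Its level fell from 22.4 ± 1.06 to 11.9 ± 2.33 CPM (n = 3, SD), a log2 fold change of -0.91 ± 0.111 (SE, adjusted p 2.43e-07 in edgeR). The gene of its partner chain, RT1-DMb, had 2 counts in control replicate 3 and 0 in each other library. The 9 class II genes other than RT1-DMa summed to 1 to 9 counts per library, and Cd74 had 1 to 4. Ciita, the class II coactivator, had 0 to 3 counts. Among the 4 leukocyte markers tested, Cd14 fell, from 872 to 896 counts in controls to 435 to 479 after knockdown, and Cd68 rose, from 37 to 61 counts to 88 to 117, while Csf1r and Itgax did not pass and Ptprc had 0 counts. The part of such cells in the RT1-DMa result was not tested.

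Genes below the count minimum numbered 31, and they are named without a fold change. They were RT1-M1-2, RT1-M1-4, RT1-M1-5, RT1-M2, RT1-M4, RT1-M5, RT1-M6-1 and RT1-M10-1, the C/E genes RT1-CE1, RT1-CE3, RT1-CE6, RT1-CE7, RT1-CE10, RT1-CE11, RT1-CE12 and RT1-CE15, and RT1-T18, RT1-S2, RT1-O1, RT1-T24-2 and RT1-T24-4. From class II they were RT1-Ba, RT1-Bb, RT1-Da, RT1-Db1, RT1-Db2, RT1-DMb, RT1-DOa, RT1-DOb and RT1-Ha, with Cd74. Of these, 8 had no count in any library, and the 30 RT1 genes among them summed to 41 to 75 counts per library. In any library the limit of 3 counts, under which a gene counts as not detected, was 0.217 to 0.232 CPM, and it covers counting error only.

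Nlrc5, the coactivator that drives class I genes as Ciita drives class II, had 40, 39 and 52 counts in controls and 37, 36 and 41 after knockdown. The groups overlapped, and the log2 fold change of -0.26 ± 0.211 (SE, adjusted p 0.295 in edgeR) did not pass. In RefSeq 2 other genes overlap the Nlrc5 span, and without a stated use of strand their reads cannot be told apart from those of Nlrc5.

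Knockdown replicate 1 was the lowest knockdown library for 8 of the 12 genes called lower (66.7%), against 32.2% of all genes called lower. Irf7, an interferon-induced factor named here after its values were seen, had 2770, 3065 and 2497 counts in controls and 666, 1901 and 1426 after knockdown. Usp18 and Irf9, chosen in the same way, had 177 and 397 counts in knockdown replicate 1, against 487 to 560 and 640 to 697 in the other knockdown libraries. Tug1 itself did not stand apart there, at 164 counts. The part of this library in the results was measured by leaving it out: 11 reported genes were still called lower, RT1-S3 no longer, against 29.0% of all genes called lower in that fit. Tap1 was then at -0.98, Tapbp at -0.82, Psmb8 at -1.32 and B2m at -0.36 on the log2 scale. With the span offset 10 reported genes were called lower, against 31.9% of all genes with a span.

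Other genes of the route were taken from 7 lists of 99 genes written from general knowledge. Of 89 tested, 50 (56.2%) were called lower and 21 higher, with a median log2 fold change of -0.18, beside 30.9% lower and 30.8% higher over all tested genes. The shares lower in the single lists, which hold 5 to 24 tested genes, ran from 38.5% for removal and sorting, near that background, to 80.0% for class II partners. In the list for loading and folding in the reticulum, 10 of 14 were lower and 2 higher. Pdia3, which is bound to tapasin in the loading complex, was at -0.53, the chaperone Calr at -0.30, the tapasin relative Tapbpl at -0.47 and Hspa5 at -0.65. Prkcsh, a glucosidase subunit, was at -0.48. Canx, the lectin chaperone that holds free heavy chains, was higher at 0.14 but did not pass without control replicate 2, and the translocon gene Sec61a1 was higher at 0.70.

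Among genes that trim or destroy peptides, 5 of 9 were lower and 2 higher. Thop1, thimet oligopeptidase, which breaks down peptides of the length that class I binds, had 1591, 1726 and 1449 counts in controls and 256, 252 and 215 after knockdown. This was the widest gap on any of these lists, with a log2 fold change of -2.78 (SE 0.0759). Tpp2, a peptidase of the cytosol, was at -0.65, Lap3 at -0.33 and Npepps at -0.30. In the proteasome list 6 of 12 were lower and 2 higher. Psme1 and Psme2, the subunits of the interferon-inducible activator PA28, were at -0.61 (SE 0.0559) and -0.55 (SE 0.0619). Psme4, a nuclear activator, was higher at 0.45, and Pomp, which helps proteasomes to assemble, was at -0.31. Of the standard subunits, Psmb6 (-0.15) was called lower but had the opposite sign with the span offset, and Psmb7 (-0.02) was not called, was called lower with the span offset (-0.14, adjusted p 0.0178 in edgeR) and had the opposite sign with library totals (0.03).

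Of the factors that act on class I genes, 12 of 24 were lower and 8 higher. Irf1, an interferon-induced activator of class I genes, was at -0.31. Rela (0.54) and Nfkb1 (0.81), which bind kappa B sites, were higher, while Ezh2 (-0.70) and Suz12 (-0.70), of the repressive PRC2 complex, were lower. Rfx5 (-0.07, SE 0.0786), which binds the X box of MHC promoters, did not pass. Irf7 (-1.12), Irf8 (-1.47) and Irf9 (-0.60) were lower and Stat2 (0.54) higher, and these 4 were named after their values were seen.

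Among interferon receptors, kinases and brakes, 8 of 12 were lower and 2 higher. Both chains of the interferon gamma receptor were lower, Ifngr1 at -0.61 and Ifngr2 at -0.49, as was the kinase Jak2 (-0.66), while the phosphatase gene Ptpn11 was higher (0.60). The interferon genes themselves were near 0: Ifng and Ifnl3 had no count and Ifnb1 had 1 count in 1 library. Of the genes for removal and sorting of class I, 5 of 13 were lower and 4 higher, with a median of -0.01. The lower count was 3 without knockdown replicate 1, 3 with the span offset and 2 with library totals. Susd6 (0.37) and the ubiquitin ligase gene Marchf8 (0.24) were higher, although Marchf8 was at 0.02 with the span offset and did not pass. Marchf9 (-0.41) was lower, and Sel1l (0.34), of the reticulum degradation complex, higher. Of the class II partners, 4 of 5 were lower and 1 higher, among them Ifi30 (-0.99), a thiol reductase of the lysosome, Lgmn (-0.51) and Cd80 (-0.56), with Sppl2a, which cleaves Cd74, higher at 0.47.

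**Figure D5:**
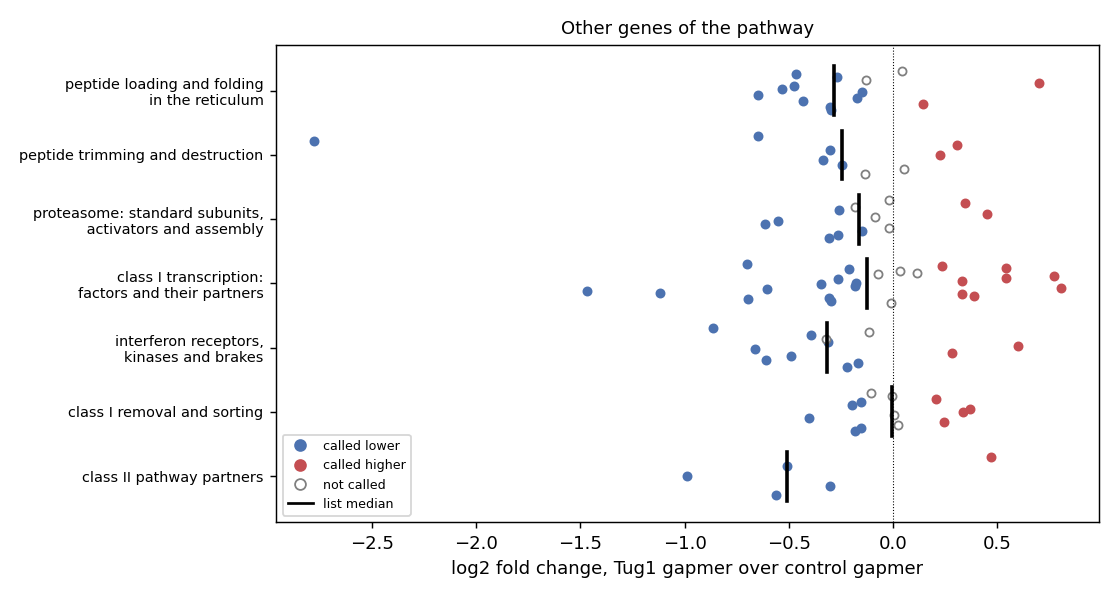
Log2 fold change of each tested gene of 7 lists (1 circle per gene, filled where the adjusted p was under 0.05) with the list median as a black line. Most filled circles lie left of 0 in the upper lists, Thop1 lies furthest left at -2.78, and the median for removal and sorting is close to 0.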

How the data were processed

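RNA was sequenced as poly-A selected, stranded libraries from 500 ng of total RNA, 3 per group, per the labels. What the authors deposited are counts of reads for each gene, unscaled, as their whole values and unequal totals show. Per the submitters' processing notes, FastQC 0.11.7, fastp 0.14.1 and STAR 2.5 were used. The counting tool, build, annotation, strand setting and treatment of reads matching several genes are not given in the sources used here. The table had 0 unnamed entries and 0 columns of other samples.

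The whole table was fitted in R 4.3.3 with edgeR 4.0.16 (filterByExpr, minimum count 10, TMM scaling, quasi-likelihood test, two-sided, no block, Benjamini-Hochberg adjustment over 14216 genes), and genes were called at an adjusted p under 0.05. The SE is the absolute log2 fold change divided by the square root of F. Replicate numbers did not pair the libraries (correlations of deviations -0.00531, 0.0298 and 0.0270). Exact permutation tests used scipy 1.17.1. Scripts were tested on simulated data.

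The genes and lists were chosen with earlier results of these data known. Reported genes had at least 10 counts in 3 libraries. From each list, the 4 genes with the smallest p past the threshold and a fixed set of partners were named, with others marked in the text, and a result for a partner is not reported here. All 57 genes matched the RefSeq table of GRCr8 by symbol, and 49 had a promoter window. Sequences are from RefSeq, GRCr8. The alternatives were DESeq2 1.42.0 size factors and Wald test, library totals, limma-voom (limma 3.58.1), no filter beyond 1 count, a replicate block, a mean of 1 CPM, a stricter threshold of 0.01 on the adjusted p, an offset for gene span (lowess, span 0.3, 12837 genes with a span), and each library left out.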

Additional observations from a re-analysis of the deposited data

How the results depend on the processing

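All alternatives were planned. Over 16 alternatives, 10 to 13 of the 26 reported genes were called lower and 1 or 2 higher. The higher count was 2 with the span offset, 2 with the span offset and replicate block, and 1 to 2 when a library was left out. Of 415 pairs of a gene and an alternative, 401 were counted as the same, 9 lost a call, 5 gained one and 0 were counted as reversed. A change of sign in a gene called in neither fit was counted as the same where the shift was smaller than the SE. Such changes occurred for RT1-T24-1 without knockdown replicate 2 (log2 fold change -0.017) and for Tap2, whose lowest value was -0.0044. The call of 20 genes stayed the same throughout. The replicate block gave 12 lower and 1 higher, the same 13 genes as without it. Fold changes ran from -1.24 to -0.98 for Tap1, from -1.04 to -0.82 for Tapbp, from -1.48 to -1.19 for Psmb8 and from -0.39 to -0.24 for B2m. The summed RT1 log2 ratio ran from -0.51 to -0.24. Among other named genes, Psmb6 had the opposite sign with the span offset (0.0505, and 0.0506 with the replicate block), as did Rfx5 (0.0365 and 0.0354), and Psmb7 with library totals (0.0322); the cause was not tested. With at least 20 counts in 3 libraries 23 genes would be reported, and with at least 10 in all 6 libraries 24. Of the pathway genes, 43 to 50 were lower and 17 to 21 higher. Within the lists, the number higher went from 2 to 1 for loading and folding without control replicate 2, and for trimming and for interferon receptors with the span offset. A level of 1 CPM stood for 12.9 to 13.8 counts. The part of depth in the heavy chain genes that did not pass was not tested.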
